A study of Mus musculus with 12 samples.

Results

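The transcriptional response that restraint stress and corticosterone have in common was read from all 12 libraries of the series (12 of 12). The 6 treated libraries (3 from restrained mice, here called stress and labelled CRS, and 3 from mice injected with corticosterone, CORT) were set against the 6 control libraries (3 Ctrl, 3 vehicle) in 1 additive model with the experiment (restraint or injection) as a block. The coefficient for treatment is then the average log2 fold change over both experiments. Of the 47729 genes in the table, 14415 passed the filter on low counts and were tested.

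The RNA came from Lgr5-EGFPhi cells of the small intestine, sorted from dissociated crypts; the mice were 8 to 10 weeks old and of the *Lgr5-EGFP-IRES-creERT2* line, and the labels name this genotype, and no other, for every group. It places enhanced green fluorescent protein and a tamoxifen-dependent Cre at the *Lgr5* locus, and is known to be silent in patches of crypts, so the cells stem from the crypts that express it. Stress mice were confined to a tube for 3 h on 1 day, and their Ctrl mice went without food and water over that time. CORT mice received 1 intraperitoneal injection of corticosterone at 5 mg/kg in 20% sulfobutylether-β-cyclodextrin, and vehicle mice received that solution alone. The label CRS is the study's short form for chronic restraint, whereas its text gives a single exposure of 1 day for these libraries. The numbers 1+2 and 4+5+6 of the stress libraries read as cells of several mice sequenced together. Both sexes were used, and neither the sex of each library nor the hour of collection is given in the sources used here. The sources also do not state that each remaining library is 1 mouse, so p-values measure the spread between libraries.

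Corticosterone is the main glucocorticoid of mice and is released by the adrenal gland under stress. It binds the glucocorticoid receptor (*Nr3c1*), a transcription factor held in the cytosol by chaperones, which then enters the nucleus and binds response elements near its target genes. Intestinal stem cells (ISCs) at the crypt base divide steadily under Wnt signaling, and their daughters replace the epithelium. Glucocorticoids are known in many tissues to reset clock genes, raise genes that spare glucose and release lipid, and restrain insulin and mTORC1 signaling.

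Total counts were 15934907 to 17135770 in the Ctrl and stress libraries, 16465961 to 31280267 in the vehicle libraries and 29426183 to 69533214 in the CORT libraries, so 2 of 3 CORT libraries were deeper than every vehicle library. Levels are given as CPM, counts scaled to a common library size with TMM factors over the 12 libraries. A count stands for 75 covered bases, so 3 read pairs make 12 counts, or 0.173 to 0.753 CPM by library before TMM scaling. These limits cover counting error only. The median CPM of 6 ISC markers was 551 to 607 in Ctrl, 494 to 526 in stress, 526 to 584 in vehicle and 434 to 518 in CORT libraries, so it was lower in treated libraries without overlap in both experiments. Of the 6, 1 was called lower on average, 1 in stress alone and 3 in CORT alone. Their summed CPM overlapped, at 10691 to 12086 in Ctrl, 11316 to 13937 in stress, 10678 to 11147 in vehicle and 10885 to 12124 in CORT libraries. The median CPM of 6 blood and of 6 stroma and endothelium markers was at most 0.115 and 0.00 in any library. Markers of other epithelial cells moved too. For enterocytes, the absorptive cells of the villus, they rose with stress. The median CPM of these 8 genes was 16.7 to 24.1 in Ctrl, 52.0 to 307 in stress, 12.7 to 18.1 in vehicle and 6.38 to 18.5 in CORT libraries, and on its own stress raised 7 of the 8 and CORT raised 1. The median of 6 markers of Paneth cells, the secretory neighbours of ISCs, was 21.9 to 25.8 CPM in Ctrl, 29.9 to 38.2 in stress, 25.2 to 27.4 in vehicle and 15.3 to 19.1 in CORT, with 1 called higher in stress and 4 called lower in CORT. That of 6 markers of mucus-secreting goblet cells was 45.6 to 57.2 CPM in Ctrl, 48.1 to 128 in stress, 38.4 to 58.2 in vehicle and 29.6 to 62.7 in CORT, with 2 called higher in stress. The part of these shifts in the results below was not tested. In bulk RNA, a shift in the share of cells of a type and a shift in RNA per cell cannot be told apart.

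Treatment changed a wide set of genes by small amounts and a short set of genes by large amounts. At an adjusted p below 0.05 (edgeR quasi-likelihood F-test, Benjamini-Hochberg over the genes tested, meant by adjusted p throughout), 699 genes were higher (4.85% of those tested) and 745 were lower (5.17%). Past 2-fold as well, 142 genes were higher (0.985%) and 55 were lower (0.382%). The median log2 fold change was 0.47 over the higher genes tested in both experiments and -0.40 over the lower genes, against 0.01 over all genes. Without the library CORT 4 the lower genes numbered 456, and without CORT 2 those lower by over 2-fold numbered 31.

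Many of these calls came from joining the experiments. Of the higher genes, 378 were also called in CORT vs. vehicle alone and 133 in stress vs. Ctrl alone, and 279 were called in neither. The corresponding numbers of lower genes were 393, 70 and 339. The 618 genes called in neither experiment alone had a median absolute log2 fold change of 0.33, against 0.52 for the other 826. Among them were *Fbxo32*, a ubiquitin ligase subunit of muscle atrophy and a FoxO target (0.76 ± 0.13 SE, adjusted p = 0.00184), and *Hras*, a small GTPase of growth factor signaling (-0.46 ± 0.08, adjusted p = 0.00236), which were picked after their values were seen.

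**Figure D1:**
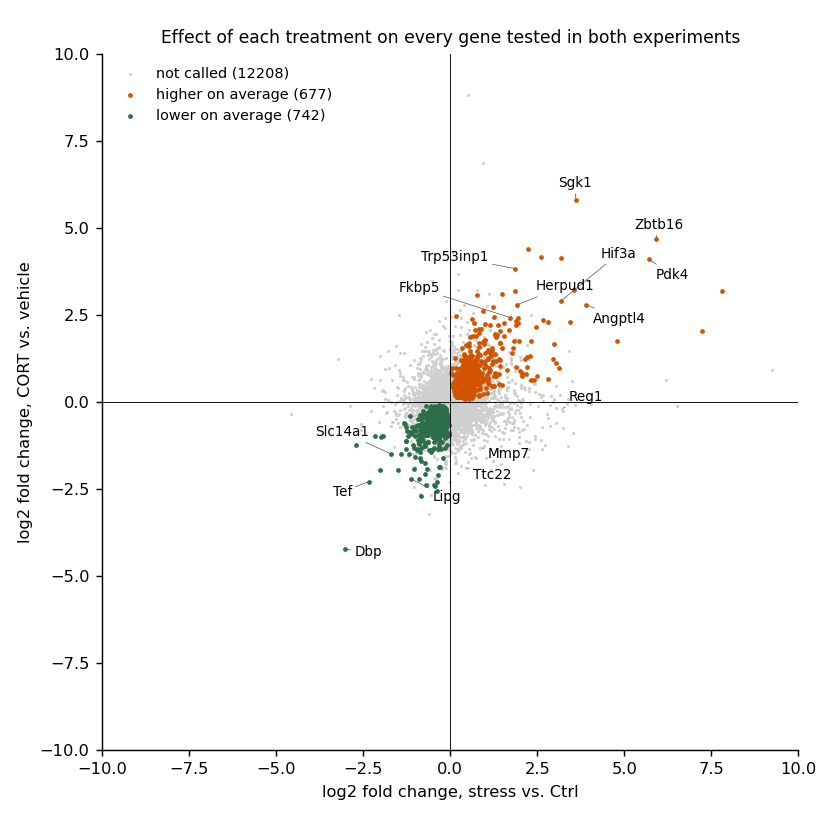
Log2 fold change of each of the 13627 genes tested in both experiments, stress vs. Ctrl on the horizontal axis and CORT vs. vehicle on the vertical axis. Orange points are the 677 genes called higher on average, green points the 742 called lower, and grey points the 12208 not called; the called genes lie in the upper right and lower left parts, with *Zbtb16*, *Pdk4* and *Sgk1* farthest among the labelled genes and *Dbp* at the other end.

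The plot of the 2 experiments' fold changes shows how far they coincide. Pearson's r across the 13627 genes was 0.28 and Spearman's rho 0.27, between comparisons that share no library (a description across genes, which are not independent). The direction was the same for 59.8% of these genes, and for the 1419 called genes among them it was the same in all, which the joint fit favours by its construction. In 1087 genes (7.54% of those tested) the 3 treated libraries lay beyond the 3 controls in the same direction in both experiments, against 154 genes in opposite directions. This held for 928 of the 1444 called genes.

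Genes chosen in 1 experiment were then read in the libraries of the other. Of the 179 genes called higher and the 81 called lower in stress (1.89% of 13722 genes tested there), 177 and 81 were tested in the injection experiment. There, 113 of the 177 had all CORT libraries above all vehicle libraries, 63.8% against 14.4% of all genes, and 65 of the 81 had them below, 80.2% against 14.6%. For the lower genes, the median log2 difference from the vehicle mean was -0.79, -0.74 and -0.54 in the 3 CORT libraries. For the higher genes it was 0.52, 0.69 and 0.45.

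In the other direction the shift was smaller. CORT vs. vehicle alone called 1192 of 14656 genes (8.13%), of which 525 higher and 659 lower are in the joint table. Of 509 higher genes tested in the restraint experiment, 256 (50.3%, against 10.1% of all genes) had all stress libraries above all Ctrl libraries, and of 657 lower genes 253 (38.5%, against 9.91%) had them below. The median difference from the Ctrl mean was 0.25 to 0.36 for the higher and -0.21 to -0.17 for the lower genes. Called in each experiment alone and in the same direction were 148 genes, 91 higher and 57 lower. This number depended on single libraries of the restraint experiment: it was 50, 61 and 48 without Ctrl 1, 2 and 3, 65 and 78 without stress 1+2 and 4+5+6, and 278 without stress 3.

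Several of the genes with the smallest adjusted p were targets of the glucocorticoid receptor. *Fkbp5* (mm10 chr17:28399095-28517524, minus strand, as are all positions of genes below in mm10) encodes a co-chaperone that lowers the affinity of the receptor for its ligand. Its level was 68.2, 65.5 and 58.2 CPM in Ctrl, 186, 192 and 252 in stress, 138, 183 and 191 in vehicle and 865, 958 and 927 in CORT libraries. The treated libraries lay above their own controls in both experiments, while the vehicle libraries also lay above the Ctrl libraries. The average log2 fold change was 2.08 ± 0.14 (adjusted p = 1.18e-06), with 1.72 ± 0.13 in stress and 2.42 ± 0.13 in CORT, a difference that was not called (adjusted p = 0.114).

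*Tsc22d3* (also GILZ), a leucine zipper protein that mediates anti-inflammatory effects of glucocorticoids, rose as well. It measured 29.8 to 39.9 CPM in Ctrl, 97.0 to 106 in stress, 28.2 to 33.7 in vehicle and 123 to 171 in CORT libraries. Its average log2 fold change was 1.91 ± 0.14 (adjusted p = 2.05e-06), with 1.54 in stress and 2.27 in CORT (adjusted p of the difference = 0.0991), and here the vehicle and Ctrl libraries overlapped. *Klf9*, a Krüppel-like factor that glucocorticoids induce in many cells, rose from 39.8 to 50.1 CPM in Ctrl to 82.4 to 106 in stress, and from 31.2 to 36.1 in vehicle to 81.6 to 104 in CORT (1.28 ± 0.10, adjusted p = 3.72e-06).

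*Sgk1* (chr10:21882184-21999903, plus strand), a kinase that raises sodium uptake and shares targets with AKT, changed by a large factor. Its level was 14.6, 21.4 and 13.8 CPM in Ctrl, 245, 153 and 207 in stress, 6.42, 6.81 and 7.52 in vehicle and 668, 384 and 115 in CORT libraries. No treated library overlapped a control, and the CORT libraries spread over a wide range, the shallowest of them (CORT 5) being lowest. The average log2 fold change was 4.66 ± 0.48 (adjusted p = 4.05e-05), with 3.605 ± 0.21 in stress and 5.80 ± 0.59 in CORT (adjusted p of the difference = 0.157).

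The *Sgk1* promoter is shown since it alone held a full glucocorticoid response element. Of the genes tested, 10075 matched a RefSeq promoter window (GRCm38.p6, from 250 bases before to 50 after a start), and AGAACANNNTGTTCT on either strand was in 1 of them. The window is chr10:21993640-21993939, plus strand, and the capitals mark the element, which starts at base -189 from the RefSeq start used. RefSeq starts need not be those used in these cells.
Sgk1: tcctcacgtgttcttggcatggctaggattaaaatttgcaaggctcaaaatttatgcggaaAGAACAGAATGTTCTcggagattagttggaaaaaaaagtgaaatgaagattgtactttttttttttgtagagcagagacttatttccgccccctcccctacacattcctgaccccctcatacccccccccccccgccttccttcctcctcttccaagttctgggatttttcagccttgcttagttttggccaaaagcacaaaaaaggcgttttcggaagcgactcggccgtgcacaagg
Its core, ACANNNTGT, which the full element contains, was found for 5.22% of the genes with a window. It was found for 11 of the 107 such genes higher by over 2-fold (10.3%) and 1 of the 33 lower by over 2-fold (3.03%). A gene counted where any of its windows matched. A match describes the letters only.

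*Zbtb16* (chr9:48654311-48835945, minus strand), a zinc finger transcription factor of progenitor cells, was almost absent in Ctrl libraries (2.34, 0.299 and 0.366 CPM, the last 2 under 3 read pairs). It stood at 55.2, 62.2 and 66.4 CPM in stress, 2.14, 14.5 and 3.76 in vehicle and 155, 184 and 165 in CORT libraries. All treated libraries were far above the controls, and the fold change (5.06 ± 0.42 on the log2 scale, adjusted p = 6.39e-06) rests on low control counts. *Hif3a*, an inhibitory member of the hypoxia-inducible factors, behaved alike, with 0.643 to 1.34 CPM in Ctrl, 9.12 to 10.9 in stress, 3.57 to 9.95 in vehicle and 39.5 to 50.9 in CORT (3.005 ± 0.23, adjusted p = 3.72e-06).

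Of the 24 listed receptor targets, 18 were higher (75%) and 0 were lower, and the list's median log2 fold change was 1.31 against 0.01 over all genes. Of these 24, 12 were called in each experiment alone. The 6 members not called were *Dusp1*, *Tat*, *Bcl6*, *Cebpd*, *Cdkn1c* and *Pik3r1*. With any 1 library left out or another tool or filter, 15 to 20 members were higher and 0 lower. *Mt1* and *Mt2*, metallothioneins that bind zinc, passed the average test (0.70 and 1.35) but were close to 0 in stress (0.13 and 0.17) and higher in CORT (1.254 and 2.48), and this difference was called (adjusted p = 0.0267 and 0.0139).

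The receptor and its partners moved little. *Nr3c1* measured 158 to 178 CPM in Ctrl, 148 to 171 in stress, 158 to 166 in vehicle and 121 to 129 in CORT libraries, so the CORT libraries all lay below the vehicle libraries, while stress and Ctrl libraries overlapped, with stress 3 below every Ctrl library. Its average log2 fold change was -0.21 ± 0.07 and was not called (adjusted p = 0.0657). In CORT alone it was called lower (-0.37, adjusted p = 0.012), and in stress alone it was not called (-0.05). Of 15 members of the receptor list that were tested, 1 was higher and 1 was lower (6.67% each, against 4.85% and 5.17% of all genes). *Hsd11b2*, the enzyme that inactivates corticosterone, rose by 0.64 ± 0.14 (adjusted p = 0.0108), from 8.30 to 11.5 CPM in Ctrl to 12.1 to 18.01 in stress and from 20.3 to 36.7 in vehicle to 41.1 to 49.8 in CORT. *Ptges3*, the p23 chaperone, fell by 0.22 on the log2 scale (adjusted p = 0.0475), a call that was lost in 12 of 21 alternatives.

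**Figure D2:**
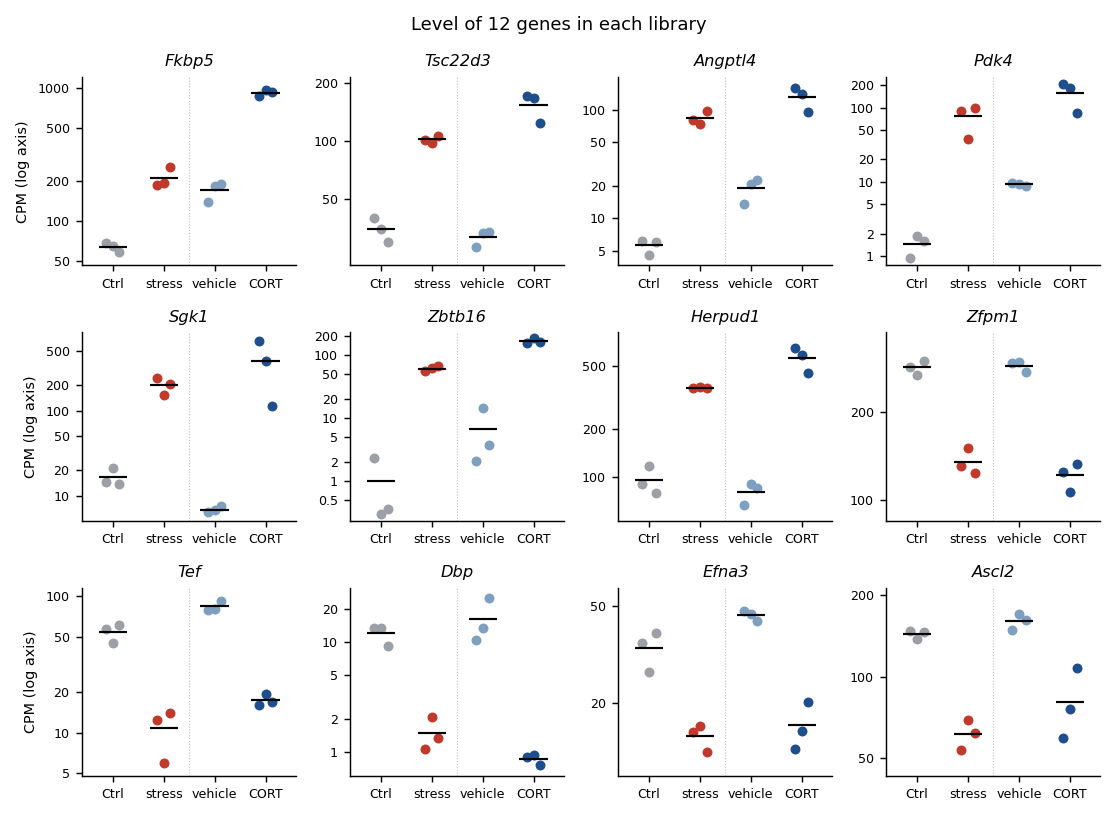
Level of 12 genes in each of the 12 libraries, in CPM on log axes that differ between panels; points are libraries, black bars are group means (n = 3), and the dotted line parts the restraint from the injection experiment. In the first 7 panels the treated libraries lie above their own controls (*Fkbp5* at 186 to 252 CPM in stress against 58.2 to 68.2 in Ctrl), and in the last 5 they lie below (*Tef* at 6.00 to 13.9 CPM in stress against 45.2 to 61.4 in Ctrl).

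Genes of fuel use formed the next group. *Angptl4* (chr17:33773750-33781575, minus strand), a secreted inhibitor of lipoprotein lipase, had the smallest adjusted p together with *Fkbp5*, *Zfpm1* and *Tef*. Its level was 6.20, 4.61 and 6.04 CPM in Ctrl, 80.0, 74.0 and 97.2 in stress, 13.4, 20.6 and 22.5 in vehicle and 159, 139 and 95.5 in CORT libraries, with no overlap between treated and control. The average log2 fold change was 3.28 ± 0.22 (adjusted p = 1.18e-06), or 9.72-fold.

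*Pdk4* (chr6:5483351-5496309, minus strand), the kinase that shuts pyruvate out of the mitochondrial oxidation route, rose further from a lower base. It measured 0.936, 1.85 and 1.59 CPM in Ctrl, 91.1, 38.2 and 98.1 in stress, 9.63, 9.19 and 8.88 in vehicle and 206, 185 and 83.4 in CORT. Here too the vehicle libraries lay above the Ctrl libraries. The change was 4.66 ± 0.35 (adjusted p = 2.31e-06).

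Of 30 tested genes of fatty acid oxidation, ketogenesis and PPAR targets, 6 were higher (20%) and 0 lower, namely *Pdk4*, *Angptl4*, the coactivator *Ppargc1a* (1.30 ± 0.13, adjusted p = 3.88e-05), *Ppara*, *Acsl1* and *Acot2*. The enzymes of the oxidation spiral itself, such as *Acadm* (-0.05), *Acadvl* (-0.13) and *Hadha* (-0.06), were not called. The list's median was 0.33 in stress and -0.12 in CORT, with 6 members called higher in stress alone, 6 called higher in CORT alone and 6 called lower in CORT alone, so the average of 0.12 joins values on either side of 0. *Fabp1*, a PPAR target that is also among the enterocyte markers, gave 3.39 in stress (adjusted p = 0.0221) and -1.26 in CORT (adjusted p = 0.0643), and this difference was called (adjusted p = 0.0294). Cholesterol and fatty acid synthesis had 0 of 29 members higher and 0 lower.

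Of 30 tested genes of PI3K, AKT and mTORC1 signaling, 4 were higher (13.3%) and 3 lower (10%), against 4.85% and 5.17% of all genes, at a median of 0.10. *Ddit4* (also REDD1), an inhibitor of mTORC1, measured 126 to 172 CPM in Ctrl, 502 to 608 in stress, 157 to 173 in vehicle and 465, 838 and 1133 in CORT libraries (2.1 ± 0.18, adjusted p = 6.7e-06). *Sesn1*, a sestrin that senses leucine upstream of mTORC1, rose by 0.64 ± 0.13 in stress and by 2.38 ± 0.16 in CORT, and this difference was called (adjusted p = 0.00434). *Sesn2* moved the other way (-0.62 ± 0.12, adjusted p = 0.0041). The adapters *Irs1* (0.80) and *Irs2* (1.10 ± 0.13, adjusted p = 0.000128), which carry the insulin signal from its receptor, were higher, and *Pik3ap1*, an adapter of PI3K, fell from 21.3 to 21.5 CPM in Ctrl to 8.26 to 11.7 in stress and from 20.1 to 27.4 in vehicle to 4.57 to 7.26 in CORT (-1.50 ± 0.18, adjusted p = 0.000129).

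*Akt1*, the kinase at the centre of the pathway, was 271 to 283 CPM in Ctrl, 224 to 250 in stress, 280 to 297 in vehicle and 242 to 260 in CORT libraries. The groups did not overlap in either experiment and the step was small (-0.22 ± 0.05, adjusted p = 0.0105). *Akt1* was called in neither experiment alone.

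The FoxO factors are transcription factors that AKT keeps out of the nucleus. Of 29 listed factors and targets, 8 were higher (27.6%) and 2 were lower (6.9%), against 4.85% and 5.17% of all genes. *Foxo3* rose from 64.3 to 67.5 CPM in Ctrl to 78.6 to 90.3 in stress and from 68.2 to 77.1 in vehicle to 94.3 to 110 in CORT (0.43 ± 0.06, adjusted p = 0.000508). *Foxo1* fell from 51.0 to 56.7 CPM to 36.5 to 49.2 in stress and from 48.0 to 52.1 to 40.2 to 41.6 in CORT (-0.31 ± 0.07, adjusted p = 0.0116). Taken alone, neither experiment called *Foxo1*, while *Foxo3* was called in CORT and not in stress. Among targets, *Ccng2*, an atypical cyclin of resting cells (1.15 ± 0.11, adjusted p = 2.08e-05), *Sesn1*, *Irs2* and the CDK inhibitor *Cdkn1a* (1.63) were higher by over 2-fold. *Ccnd2*, a D-type cyclin that FoxO factors repress, was lower (-0.68 ± 0.09, adjusted p = 0.000348). *Ccnd1*, a D-type cyclin of the same list, was not called (0.05), with -0.20 in stress and 0.30 in CORT. Also not called on average were *Pck1* and *G6pc*, called higher in stress alone, and *Bcl6*, called higher in CORT alone. Of the 29 members, 4 were called in each experiment alone.

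*Txnip*, an arrestin that limits glucose uptake and binds thioredoxin, is abundant in these cells. It measured 471 to 543 CPM in Ctrl, 1084 to 1368 in stress, 454 to 492 in vehicle and 660, 1130 and 1419 in CORT libraries (1.24 ± 0.14, adjusted p = 6.99e-05). Its window, chr3:96557707-96558006 on the plus strand, is shown since it held the core element and the forkhead element GTAAACA, at -170 and -121 from the start, both in capitals.
Txnip: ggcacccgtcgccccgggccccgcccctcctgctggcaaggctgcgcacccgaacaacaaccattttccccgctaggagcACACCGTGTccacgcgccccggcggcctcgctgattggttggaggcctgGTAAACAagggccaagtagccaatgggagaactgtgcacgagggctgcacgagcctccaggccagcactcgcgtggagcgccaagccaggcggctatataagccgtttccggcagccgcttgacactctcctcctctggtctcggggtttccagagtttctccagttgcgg
GTAAACA on either strand was found for 3.29% of all genes with a window. It was found for 7 of the 107 such genes higher by over 2-fold (6.54%), of which *Klf9*, *Sesn1* and *Txnip* are described here. It was found for 0 of the 33 such genes lower by over 2-fold.

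**Figure D3:**
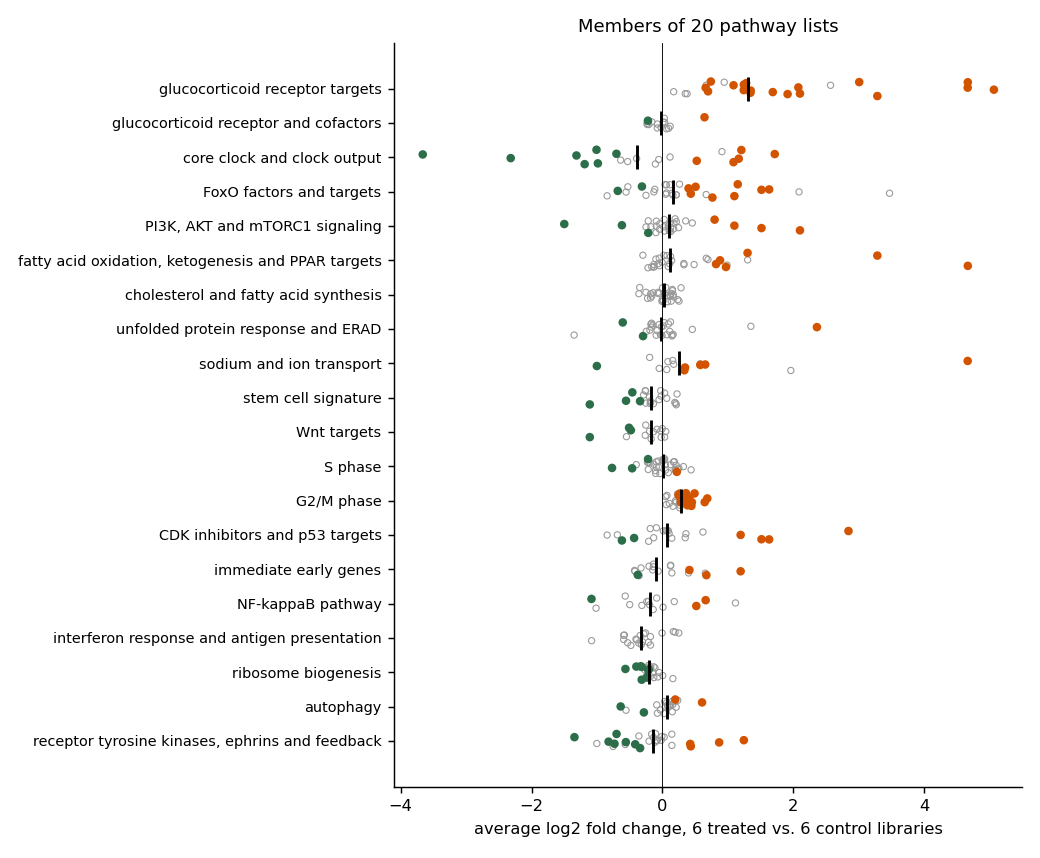
Average log2 fold change of each tested member of 20 pathway lists, 6 treated against 6 control libraries; filled points were called (orange higher, green lower), open points were not, and black bars are list medians. The glucocorticoid receptor targets have a median of 1.31 and the G2/M genes lie wholly to the right of 0 in a narrow band, whereas ribosome biogenesis lies to the left with a median of -0.21.

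Circadian clock genes changed in both directions. The clock is a loop in which ARNTL with CLOCK or NPAS2 drives *Per*, *Cry*, *Nr1d* and PAR bZIP genes through E-boxes, PER and CRY proteins block that drive, and NR1D proteins repress *Arntl*. Of 19 tested members, 5 were higher (26.3%) and 7 lower (36.8%), against 4.85% and 5.17% of all genes. In all 12 the libraries separated in the same direction in both experiments, against 64.3% of all called genes and 7.54% of genes tested. With any alternative, 4 or 5 were higher and 7 or 8 lower.

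The output factors fell most. *Dbp*, a PAR bZIP activator, measured 13.4, 13.5 and 9.21 CPM in Ctrl, 1.06, 2.06 and 1.33 in stress, 10.46, 13.4 and 25.1 in vehicle and 0.897, 0.931 and 0.757 in CORT libraries. Treated and control libraries were far apart (-3.66 ± 0.30, adjusted p = 6.39e-06), at a low level, and *Dbp* overlaps *Sphk2* on the opposite strand, so reads of the pair can be shared where strand was not used. Its relative *Tef* fell from 45.2 to 61.4 CPM in Ctrl to 6.00 to 13.9 in stress and from 79.3 to 93.0 in vehicle to 15.9 to 19.1 in CORT. The average was -2.32 ± 0.15 (adjusted p = 1.18e-06), with -2.35 in stress and -2.30 in CORT.

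Of the negative limb, *Per2* (-1.31 ± 0.14, adjusted p = 4.67e-05), *Per3* (-1.19) and *Cry1* (-0.99) were lower, as were the repressors *Nr1d1* (-1.01 ± 0.15, adjusted p = 0.000871) and *Nr1d2* (-0.70 ± 0.08, adjusted p = 6.99e-05). *Nr1d1* overlaps *Thra* on the opposite strand. *Per1*, which also has glucocorticoid response elements, went the other way, from 45.4 to 57.9 CPM in Ctrl to 85.5 to 93.5 in stress and from 32.1 to 54.4 in vehicle to 88.7 to 116 in CORT (1.09 ± 0.13, adjusted p = 0.000134). The activators were higher, *Arntl* at 24.2 to 27.2 CPM in Ctrl against 49.2 to 62.8 in stress and 12.7 to 20.1 in vehicle against 33.1 to 48.8 in CORT (1.17 ± 0.13, adjusted p = 6.58e-05), and *Npas2* with 1.205 ± 0.15 (adjusted p = 0.000146). *Clock* itself was not called (-0.06). *Usp2*, a protease of clock proteins, was higher as well (0.52 ± 0.10, adjusted p = 0.0048). *Nfil3*, a repressor that competes with DBP and TEF, rose by 1.71 ± 0.16 (adjusted p = 1.95e-05).

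**Figure D4:**
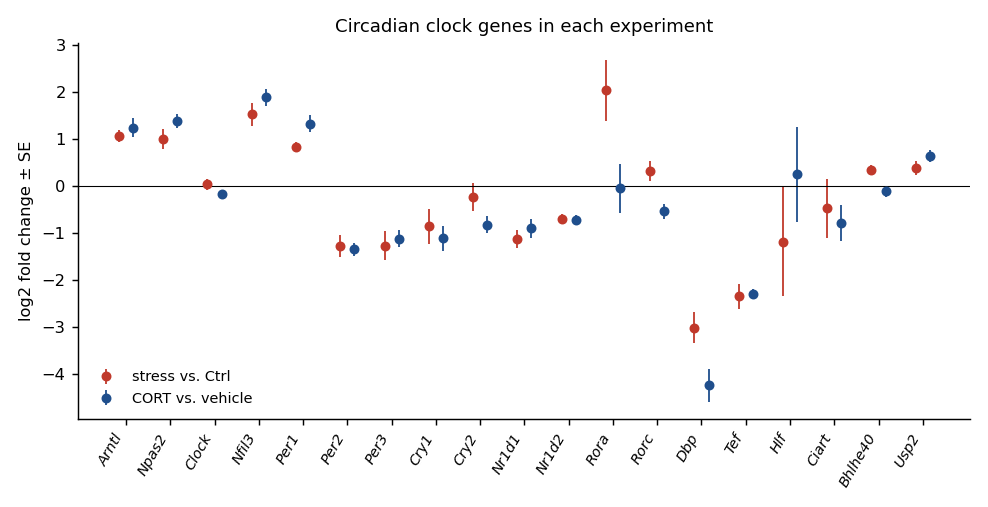
Log2 fold change ± SE of 19 clock genes in stress vs. Ctrl (red) and CORT vs. vehicle (blue), 3 against 3 libraries each. The 2 experiments give nearly the same value for *Tef* (-2.35 and -2.30), *Per2* (-1.28 and -1.35) and *Nr1d2* (-0.70 and -0.71), while *Rora* and *Hlf* have wide errors.

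The promoters of 2 clock genes that moved in opposite directions are shown with the element of their class. That of *Tef*, chr15:81802423-81802722 on the plus strand, held 1 E-box (CACGTG, capitals) at -127 from the start. That of *Arntl*, chr7:113207261-113207560 on the plus strand, held 1 element of the class that ROR and NR1D proteins bind (TAGGTCA, capitals), from base 31 after the start.
Tef: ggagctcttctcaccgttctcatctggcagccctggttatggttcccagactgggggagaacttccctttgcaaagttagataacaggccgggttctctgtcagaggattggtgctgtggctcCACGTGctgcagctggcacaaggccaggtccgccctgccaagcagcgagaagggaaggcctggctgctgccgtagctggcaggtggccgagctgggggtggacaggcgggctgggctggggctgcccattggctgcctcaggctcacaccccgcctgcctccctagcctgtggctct
Arntl: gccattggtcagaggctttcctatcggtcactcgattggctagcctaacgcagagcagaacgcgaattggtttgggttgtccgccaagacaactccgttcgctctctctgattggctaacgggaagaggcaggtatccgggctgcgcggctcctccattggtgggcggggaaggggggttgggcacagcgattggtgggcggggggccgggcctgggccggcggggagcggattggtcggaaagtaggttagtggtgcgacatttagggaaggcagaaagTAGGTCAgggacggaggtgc
CACGTG was found for 11.8% of the genes with a window, 11.2% of those higher by over 2-fold and 15.2% of those lower by over 2-fold. TAGGTCA was found for 2.35%, 3.74% and 0.00% of them.

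Genes of late cell cycle were higher by small steps. Of 30 tested G2/M phase genes, 18 were higher (60%) and 0 lower, and the median was 0.29 against 0.01 over all genes. All 30 had an average above 0, as had 30 of 30 in stress and 27 of 30 in CORT. Stress alone called 7 of them higher and CORT alone 8, and 3 were called in each. *Nusap1*, a spindle protein, measured 66.2, 78.8 and 61.5 CPM in Ctrl, 102, 99.2 and 106 in stress, 71.5, 85.8 and 67.7 in vehicle and 128, 122 and 119 in CORT libraries. Each treated library exceeded each control of its experiment (0.65 ± 0.07, adjusted p = 8.46e-05). *Top2a*, the topoisomerase of mitotic chromosomes, rose by 0.44 ± 0.06 (adjusted p = 0.000526), *Cenpa*, the histone of centromeres, by 0.45 ± 0.07 (adjusted p = 0.00166), and the kinesin *Kif11* by 0.41 ± 0.06 (adjusted p = 0.000686). The proliferation marker *Mki67* rose by 0.31 ± 0.06 (adjusted p = 0.00717). It was called in stress alone (0.43, adjusted p = 0.0282) and not called in CORT alone (0.18). The count of 18 higher genes ranged from 15 to 22 over the alternatives.

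Genes of S phase gave another picture. Of 34 tested, 1 was higher (2.94%) and 3 were lower (8.82%), against 4.85% and 5.17% of all genes, at a median of 0.01. The lower genes numbered 5 with DESeq2, 7 with limma and 2 to 7 over all alternatives. *Ccne1*, the cyclin that opens S phase, fell from 17.8 to 19.2 CPM in Ctrl to 6.22 to 10.3 in stress and from 18.4 to 20.3 in vehicle to 13.9 to 15.1 in CORT (-0.77 ± 0.15, adjusted p = 0.00429). The repair glycosylase *Ung* (-0.46 ± 0.09, adjusted p = 0.00646) was lower too. The calls of the helicase subunit *Mcm2* (-0.22) and the primase *Prim1* (0.22) were each lost in 12 of 21 alternatives. The list's median was -0.19 in stress and 0.16 in CORT. *Rrm2*, a subunit of the enzyme that makes deoxynucleotides, illustrates this, with 0.99 ± 0.09 in CORT, -0.14 ± 0.12 in stress and a called difference (adjusted p = 0.00691).

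Among inhibitors of the cycle, *Trp53inp1* (chr4:11156431-11174379, plus strand), a p53 target that acts in growth arrest and autophagy, had the largest change. It measured 17.3 to 30.2 CPM in Ctrl, 82.1 to 92.1 in stress, 11.9 to 15.4 in vehicle and 154 to 224 in CORT (2.84 ± 0.31, adjusted p = 6.1e-05). The step was larger in CORT (3.83 ± 0.17) than in stress (1.87 ± 0.17), with a called difference (adjusted p = 0.0066). *Btg2*, an antiproliferative p53 target, was higher (1.19 ± 0.19, adjusted p = 0.00135), whereas the p53 target *Aen* was lower (-0.43 ± 0.07, adjusted p = 0.00174). In all, 4 of 21 members of this list were higher (19%) and 2 lower (9.52%), against 4.85% and 5.17% of all genes. *Mdm2* (0.09) and *Bax* (-0.19), common p53 targets, were not called.

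Part of the ribosome biogenesis list was lower. Of 25 tested factors, 9 were lower (36.0%) and 0 higher, and the median was -0.21. *Rrs1*, an assembly factor of the large subunit, was 88.4 to 91.9 CPM in Ctrl, 62.3 to 80.2 in stress, 101 to 129 in vehicle and 65.8 to 70.7 in CORT libraries (-0.57 ± 0.09, adjusted p = 0.000959). The nucleolar proteins *Nolc1* (-0.32 ± 0.06, adjusted p = 0.00236) and *Nop2* (-0.40 ± 0.08, adjusted p = 0.00466) were lower as well. No member was called in stress alone and 7 were called in CORT alone. The count of 9 ranged from 5, without Ctrl 3, vehicle 6, CORT 2 or CORT 4, to 13. *Myc*, a transcription factor that drives these genes and a Wnt target, was 245 to 294 CPM in Ctrl, 182 to 196 in stress, 188 to 315 in vehicle and 165 to 218 in CORT. It was lower on average (-0.51 ± 0.11, adjusted p = 0.0106), although CORT and vehicle libraries overlapped.

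**Figure D5:**
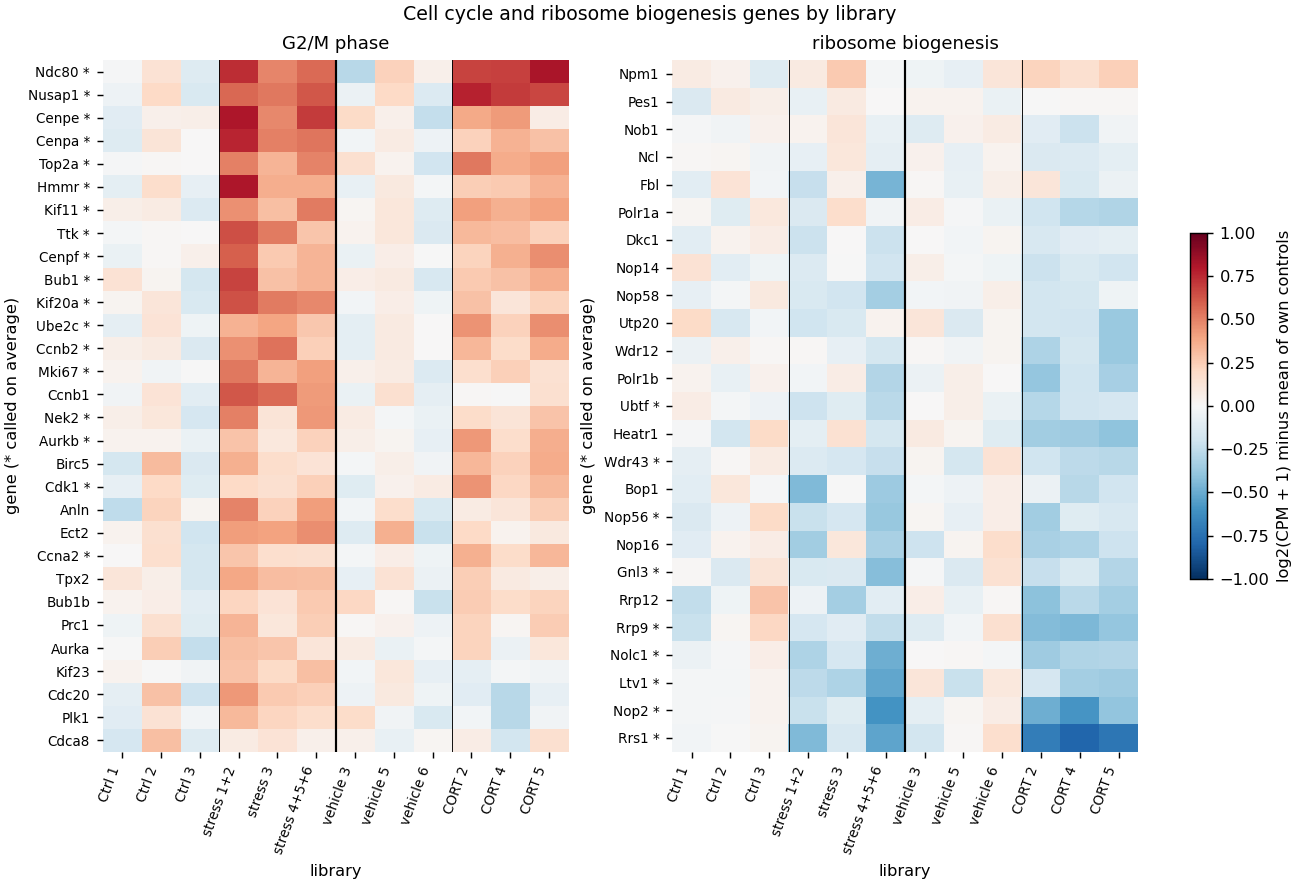
Difference of log2(CPM + 1) from the mean of the 3 controls of the same experiment, for each tested G2/M phase gene (left) and ribosome biogenesis gene (right) in each library; red is higher, blue lower, values beyond 1 in size take the end colour, and stars mark genes called on average. The stress and CORT columns are mostly red on the left, with 18 of 30 genes called higher, and mostly blue on the right, with 9 of 25 called lower.

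Of the stem cell signature, 4 of 22 genes were lower (18.2%) and 0 higher, against 5.17% lower of all genes, and the median was -0.18. The lower genes numbered 8 with DESeq2, 7 with limma and 3 to 8 over all alternatives. *Ascl2* (chr7:142966829-142969264, minus strand), the transcription factor that maintains ISC identity under Wnt, led them. Its level was 148, 138 and 147 CPM in Ctrl, 53.8, 69.0 and 61.8 in stress, 149, 171 and 162 in vehicle and 59.3, 75.8 and 108 in CORT, with no overlap (-1.11 ± 0.12, adjusted p = 4.82e-05). *Cdca7* (-0.46 ± 0.07, adjusted p = 0.00143), *Mex3a* (-0.56) and *Lrig1* (-0.34 ± 0.08, adjusted p = 0.0139) were lower too, and *Lrig1* overlaps *Slc25a26* on the opposite strand. *Lgr5*, the receptor whose locus drives the sort reporter, was not called on average (-0.26 ± 0.10, adjusted p = 0.116), with 206 to 245 CPM in Ctrl, 173 to 248 in stress, 194 to 210 in vehicle and 128 to 159 in CORT. It was called lower in CORT alone (-0.43, adjusted p = 0.0277) and not called in stress alone (-0.08). *Olfm4*, a secreted ISC marker at 6884 to 10350 CPM, was not called on average either (0.19 ± 0.07, adjusted p = 0.119). On its own, CORT lowered 8 members of the list and stress lowered 1. Of 15 Wnt targets, 3 were lower, *Ascl2*, *Myc* and *Nkd1*, and 0 higher, against 5.17% lower of all genes. The lower ones numbered 6 without CORT 5, 2 without stress 4+5+6 and 2 to 6 over all alternatives. The call of *Nkd1* was lost in 8 of 21 alternatives.

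Surface receptors and their ligands and brakes made up another mixed group. Of 27 tested, 4 were higher (14.8%) and 7 lower (25.9%), against 4.85% and 5.17% of all genes. Without CORT 4 the lower ones numbered 4. On its own, stress lowered 1 member and raised 2, and CORT lowered 11 and raised 1. The list's median was 0.04 in stress and -0.30 in CORT. *Efna3*, an ephrin ligand, fell from 26.8 to 38.7 CPM in Ctrl to 12.7 to 16.3 in stress and from 43.3 to 47.3 in vehicle to 13.1 to 20.3 in CORT (-1.34 ± 0.13, adjusted p = 2.08e-05). *Efna4* (-0.42 ± 0.08, adjusted p = 0.00477) and the growth factor receptor *Fgfr3* (-0.56 ± 0.11, adjusted p = 0.00424) were lower. The receptor *Erbb3* (0.43 ± 0.08, adjusted p = 0.00386) was higher, as were the feedback inhibitors *Errfi1* (1.24 ± 0.15, adjusted p = 0.000147) and *Spred2* (0.42 ± 0.08, adjusted p = 0.00531).

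In the list of the unfolded protein response, 1 gene stood alone. *Herpud1* (chr8:94386438-94395377, plus strand), a membrane protein of endoplasmic reticulum degradation, measured 89.8, 117 and 79.8 CPM in Ctrl, 360, 367 and 359 in stress, 66.5, 90.3 and 85.5 in vehicle and 646, 581 and 452 in CORT libraries. Its change of 2.36 ± 0.16 (adjusted p = 1.67e-06) was not shared by the rest of the list. The chaperone *Hspa5* (-0.30 ± 0.07, adjusted p = 0.0132) and the transcription factor *Xbp1* (-0.61 ± 0.12, adjusted p = 0.00559) were lower, and 24 of 27 members were not called. The list's shares, 3.7% higher and 7.41% lower, were near those of all genes (4.85% and 5.17%).

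Of 14 ion transport genes, 5 were higher (35.7%) and 1 was lower (7.14%), against 4.85% and 5.17% of all genes. The list's median was 0.27 in stress and -0.004 in CORT. On its own, stress raised 1 member and lowered 1, and CORT raised 3 and lowered 1. The higher ones numbered 3 without Ctrl 2, stress 1+2 or CORT 4. Beside *Sgk1* they were *Nedd4l*, a ubiquitin ligase that SGK1 inhibits (0.33 ± 0.06, adjusted p = 0.00311), the sodium-proton exchanger *Slc9a2* (0.58 ± 0.10, adjusted p = 0.00182), the chloride channel *Cftr* (0.34) and *Slc26a3* (0.65), a chloride-bicarbonate exchanger of enterocytes with 1.05 in stress and 0.25 in CORT. *Nedd4l* was called in neither experiment alone. *Kcne3*, a subunit of the basolateral potassium channel, was 298 to 361 CPM in Ctrl, 151 to 198 in stress, 306 to 411 in vehicle and 125 to 186 in CORT (-1.002 ± 0.11, adjusted p = 8.74e-05).

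Inflammatory and early response lists held few called members, with lower shares near that of all genes (5.17%). Of 15 tested NF-kappaB genes, *Nfkbia*, the inhibitor that glucocorticoids induce (0.66 ± 0.16, adjusted p = 0.015), and *Birc3* (0.52 ± 0.09, adjusted p = 0.00284) were higher and *Bcl3* was lower (-1.08 ± 0.28, adjusted p = 0.0238). Of this list 13.3% were thus higher and 6.67% lower. For *Bcl3* the stress value was -0.28 and the CORT value -1.87, with vehicle 6 at 89.2 CPM against 39.3 and 48.4 in the other vehicle libraries, and the call was lost in 3 of 21 alternatives. Of 18 immediate early genes, *Klf6* (0.67 ± 0.08, adjusted p = 0.000106), *Btg2* and *Zfp36* were higher (16.7%, against 4.85% of all genes) and *Jund* lower (5.56%), and *Fos*, *Egr1* and *Jun* were not called. *Zfp36*, an mRNA decay factor, lost its call in 12 of 21 alternatives.

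Of 21 autophagy genes, *Atg14* (0.60 ± 0.13, adjusted p = 0.00957) and *Becn1* (0.20 ± 0.05, adjusted p = 0.0188), which act in the same lipid kinase complex, were higher, and *Tfeb*, a factor of lysosome genes (-0.64 ± 0.13, adjusted p = 0.00498), and *Atg7* (-0.28 ± 0.08, adjusted p = 0.0444) were lower. These counts, 9.52% in each direction, stand beside 4.85% and 5.17% of all genes and rest on 2 genes each. The calls of *Becn1* and *Atg7* were lost in 2 and 13 of 21 alternatives. None of 21 interferon and antigen presentation genes was called on average, at a median of -0.32, with 0.03 in stress and -0.69 in CORT.

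Where a list had a count of 0 in edgeR, an unadjusted p below 0.05 was found for 0 receptor targets and 0 G2/M genes lower, 1 ribosome biogenesis gene, 3 stem cell genes and 0 Wnt targets higher, and 1 gene of fatty acid oxidation lower. For cholesterol and fatty acid synthesis it was 0 higher and 6 lower, and for the interferon list 0 higher and 1 lower. DESeq2 called 1 gene of fatty acid oxidation and 2 of cholesterol and fatty acid synthesis lower and 0 in the other cases, and limma on FPKM called 0 in each.

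Genes outside the lists were among the strongest as well. *Zfpm1* (also FOG1, chr8:122282141-122337251, plus strand), a cofactor of GATA factors, fell from 267 to 297 CPM in Ctrl to 124 to 151 in stress and from 272 to 295 in vehicle to 107 to 133 in CORT, which is close to the same step in each (-1.15 ± 0.07, adjusted p = 1.18e-06). *Slc14a1*, a urea transporter, measured 115 to 134 CPM in Ctrl, 34.2 to 44.0 in stress, 49.6 to 75.7 in vehicle and 11.3 to 36.4 in CORT (-1.60 ± 0.21, adjusted p = 0.000244), so the CORT libraries lay below the vehicle libraries although the vehicle libraries lay below Ctrl. *Lipg*, the endothelial lipase, fell by 1.68 on the log2 scale (adjusted p = 0.000193). *Il22ra1*, a chain of the interleukin-22 receptor, rose from 9.21 to 12.5 CPM to 26.7 to 32.7 in stress and from 10.2 to 13.8 to 26.0 to 32.2 in CORT (1.30 ± 0.11, adjusted p = 1.03e-05).

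The remaining genes with the smallest adjusted p had log2 fold changes of 1.08 to 1.88 among the higher genes (*Kif21b*, *Tmem252*, *N4bp2l1* and *Ypel2*) and of -1.46 to -1.04 among the lower genes (*Fam222a*, *Fam20c*, *Iffo2*, *Tmem266* and *Abi3*). *Abi3* overlaps *Zfp652* on the opposite strand. *Abi3*, *Tmem266* and *Fam20c* were called in CORT alone and not in stress alone.

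The size of the effect seldom differed between the experiments at this number of libraries. The difference was called for 56 of 14415 genes (0.388%), of which 22 were called on average, a number that was 47 without stress 3 and fell to between 7 and 14 when Ctrl 1, 2 or 3, stress 1+2, vehicle 5 or 6, or CORT 2, 4 or 5 was left out. Among the 1419 called genes tested in each experiment, the absolute log2 fold change was larger in CORT in 929, with a median of 0.49 against 0.37 in stress.

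The control groups were not alike in the level of some targets. All vehicle libraries lay above all Ctrl libraries for 4 of the 24 receptor targets (*Fkbp5*, *Pdk4*, *Angptl4* and *Hif3a*), 16.7% against 7.96% of all genes. Their means were 171, 9.23, 18.8 and 6.02 CPM in vehicle and 64.0, 1.46, 5.61 and 1.10 CPM in Ctrl (n = 3 each). The block takes this difference in level out of the comparison. The CORT fold changes that enter the average are still measured from the higher vehicle level.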

How the data were processed

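RNA was sequenced from sorted ISCs of 12 libraries in 4 groups. Per the labels, the authors aligned reads with HISAT2 2.2.1 and assembled and quantified them with StringTie 2.2.1 on mm10, whereas the paper's methods name another HISAT2 version and featureCounts as the counter, and the values have the form of StringTie counts. The deposited estimated counts, already whole, are covered bases divided by 75, so a 150-base read gives about 2 counts and a pair up to 4. The deposited FPKM values, made by the authors with StringTie, served an alternative (log2(FPKM + 1), limma 3.58.1), and the deposited coverage per base served to learn the size of a count. Strand use in counting is not given in the sources used here.

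Counts were fitted with edgeR 4.0.16 in R 4.3.3 (TMM, filterByExpr, quasi-likelihood F-test, Benjamini-Hochberg over 14415 genes). The joint model holds experiment and treatment, each experiment was also fitted on its 6 libraries, and the difference came from 4 group means. The biological coefficient of variation was 20.4%. SE is the absolute log2 fold change over the square root of F. The scripts were tested on simulated data. Alternatives used DESeq2 1.42.0, other filters, models and scalings, each library left out, and libraries thinned to the smallest total, which was chosen after the data were seen.

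CPM values carry TMM factors. Genes named are the 15 higher and 15 lower with the smallest adjusted p past 2-fold and with separated libraries in both experiments, up to 3 called members in each direction from each list, those called in both experiments, 11 genes of the receptor, AKT, FoxO and stem cell axes and the 5 with opposite effects. Other list members were named after their values were seen. Lists share members. Members, lists and tests were chosen with earlier results of these data known. Promoter windows came from RefSeq (GRCm38.p6).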

Additional observations from a re-analysis of the deposited data

Results flagged for a closer look

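The effect in stress and the effect in CORT differed by the edgeR test of the interaction (Benjamini-Hochberg over 14415 genes) for the following genes named in the text or held in the lists, with the difference given as log2 fold change in stress minus that in CORT. Among genes called on average, the difference was -1.743 for *Sesn1* (adjusted p = 0.00434), -1.963 for *Trp53inp1* (adjusted p = 0.0066), -1.132 for *Mt1* (adjusted p = 0.0267) and -2.305 for *Mt2* (adjusted p = 0.0139), so that each was changed more by CORT. *Fgfr2*, a fibroblast growth factor receptor, was also called lower on average and had a difference of 1.174 (adjusted p = 0.0066).

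Among genes not called on average, *Mmp7*, a protease of Paneth cells, was higher in stress and lower in CORT, with a difference of 2.177 (adjusted p = 0.000688). *Gramd3* (1.272, adjusted p = 0.00291) and *Ttc22* (2.34, adjusted p = 0.0114) were called lower in CORT and not called in stress. *Reg1*, a secreted lectin, was called higher in stress and not called in CORT (3.402, adjusted p = 0.00711), and *Rrm2* was called higher in CORT and not called in stress (-1.137, adjusted p = 0.00691).

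List members with a difference were *Bcl6*, a repressor (-2.359, adjusted p = 0.0173), *Pik3r1*, a regulatory subunit of PI3K (-0.6263, adjusted p = 0.0358), *Acadl*, an enzyme of fatty acid oxidation (1.054, adjusted p = 0.0294), *Fabp1* (4.649, adjusted p = 0.0294) and *Idi1*, an enzyme of cholesterol synthesis (-0.9124, adjusted p = 0.0452). Groups held 3 libraries each, so single libraries were not tested as outliers.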

How the results depend on the processing

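The split of 699 higher and 745 lower genes became 473 and 925 with limma on log2(FPKM + 1), and the median of all genes stayed between -0.03 and 0.04 over the alternatives. Genes higher by over 2-fold numbered 93 with at least 10 counts in every library and 61 with limma, and those lower by over 2-fold 21 with limma. The 22 called genes with a difference between experiments became 123 with DESeq2 and 11 with limma. The 148 genes called in each experiment became 306 with DESeq2, 40 with no filter, 243 with 4 group means and 66 with limma. Leaving out 1 library gave 491 to 810 higher, 456 to 844 lower, 102 to 168 and 31 to 63 past 2-fold, 755 to 1212 separated called genes, 7 to 47 with a difference and 48 to 278 called in each. Thinning to the smallest total gave 681 higher and 707 lower genes. The cause of these shifts was not tested.

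Of the 94 genes chosen by the naming rule 86 were called, of which 76 were called in all 21 alternatives and 10 lost the call in at least 1, and 0 of the 94 reversed. Other genes named in the text were not refitted one by one. The model with 4 group means gave no other test of the difference, and the model without the experiment term gave neither that nor the single experiments. No paired analysis was possible because the groups compared share fewer than 2 numbers.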

Other observations

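Genes outside the lists, picked after their values were seen, were also called on average past 2-fold. *Hpgd*, the enzyme that inactivates prostaglandins, had a log2 fold change of 2.30, *Glul*, the glutamine synthetase, of 1.47, *Lcn2*, an iron-binding antimicrobial protein, of 2.23, and *Cyp3a11*, a drug and steroid hydroxylase, of 2.41. *Hoxb6* and *Hoxb9*, transcription factors of position along the body axis, had -1.30 and -1.60.

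The treated libraries were not alike in how far they had moved. CORT 5 was the nearest of the CORT libraries to the control side in 376 of 699 higher genes (53.8%) and in 380 of 745 lower genes (51.0%). Among the stress libraries this was stress 3, in 394 (56.4%) and 339 (45.5%). These shares describe the called genes only and were not computed over all genes tested. All vehicle libraries lay above all Ctrl libraries in 152 of the 745 lower genes (20.4%), against 7.96% of all genes tested and 8.87% of the higher genes. The choice of the lower genes itself favours this order, since the vehicle level enters their fold change. Genes with all vehicle libraries below all Ctrl libraries were not counted.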
